A study of Homo sapiens with 18 samples.

Results

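The balance between spliced and unspliced RNA was read in human HEK293 cells, an embryonic kidney line, after 7.5 min of labelling with 4-thiouridine. For each gene the mature (spliced) value was set against the primary (unspliced) value of the same library, in 3 libraries. A gene entered when the table gave it a primary value and its mature and primary values summed to a mean of at least 5 TPM, the length-scaled expression level that RSEM gives, over the 3 libraries, which 13110 of 38500 entries with a primary value did, of 63568 entries in all. The spliced share of a gene is its mature TPM as a percent of its mature plus primary TPM. The series holds 18 libraries, all labelled as HEK293 with no other cell type or genotype: labelled RNA at 7.5, 15, 30, 45 and 60 min, 3 libraries per time, and 3 libraries of total RNA that was not selected for the label, prepared by poly(A) selection, RNase H depletion or Ribo-Zero depletion of ribosomal RNA. Cells were given 4-thiouridine, a uridine analogue, at 500 µM, and labelled RNA was biotinylated and bound to streptavidin. The labels give the total libraries no labelling time and say nothing of separate cultures, so each p-value reflects no more than the spread among the libraries, and that spread may be technical.

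A gene is first copied by RNA polymerase II into a primary transcript that still holds its introns. The spliceosome then cuts out each intron between its 5′ and 3′ splice sites and joins the exons, often while the polymerase is still moving along the gene. Some introns carry small nucleolar RNAs (snoRNAs), which guide the chemical modification of ribosomal RNA and are trimmed out of the excised intron. The series title states the aim of sorting coding and non-coding genes by RNA metabolism, and the 7.5 min libraries hold the youngest RNA of the course.

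Depth is unknown because TPM carry none. Members held 70.1%, 67.8% and 75.4% of all TPM in replicates 1, 2 and 3. Of the 5 HEK293 markers found, 4 were members and the neurofilament gene NEFM was at 0, 0.59 and 0.25 TPM. Vimentin (VIM) had 470, 359 and 377 TPM and the kidney transcription factor PAX2 12.7, 12.1 and 10.2 TPM, mature and primary together. The summed level of the 5 of 7 HEK293 markers found in the table was 466 to 597 TPM, and that of 11 markers of other cell types was 2.38 to 18.5 TPM, with CD3E, HBB and INS at 0 in all 3 libraries and HBA1 at 3.51, 16.3 and 0 TPM. Among members, 391 entries in 185 groups had the same 6 values as another member and are copies that cannot be told apart.

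After 7.5 min a typical gene was somewhat more spliced than unspliced. The median spliced share was 59.8%, 60.9% and 60.1% in the 3 libraries, a mean of 60.3% ± 0.564 (SD, n = 3). Of the members' summed TPM, 67.7%, 68.1% and 69.4% was mature. The middle of the genes was wide: the 5th percentile of the mean share was 6.27%, the 25th 43.3%, the 75th 73.4% and the 95th 91.5%. Within a gene the share varied less, with a median SD of 4.97 points over the 3 libraries. With limma on log2((mature + 0.1)/(primary + 0.1)), 5896 of 13110 genes had more mature than primary RNA (45.0%) and 2061 had more primary than mature RNA (15.7%) at a Benjamini-Hochberg adjusted p under 0.05, 60.7% in either direction, and 5153 did not pass. The median log2 ratio was 0.58, and with each library centred on its median gene the calls were 3826 and 3505. Without replicate 3 only 1342 genes had more primary RNA.

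Nearly all unspliced genes were taken as those with a share of at most 10% in each of the 3 libraries, and already spliced genes as those with at least 90% in each. There were 584 nearly all unspliced genes (4.45%), 583 already spliced genes (4.45%) and 11943 between them. Just inside and just outside the lower edge the largest share of a gene was 9.89% and 10.03%, and at the upper edge the smallest share was 90.01% inside, while 1 gene at 90% within rounding was counted between. In 25 members both forms were listed at 0 in at least 1 library, which kept them out of both classes. Both classes are defined by these values, so their shares are a description and not a test. Of the 584 nearly all unspliced genes, 473 were listed at 0 mature TPM in all 3 libraries, and 111 were not listed at 0 in this way. Of the 583 already spliced genes, 141 were listed at 0 primary TPM in all 3 libraries.

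The nearly all unspliced class was made mostly of non-coding entries. It held 46 of 69 sense intronic RNAs (66.7%), which lie within an intron of another gene on the same strand, 89 of 264 long intergenic RNAs (33.7%), 144 of 468 antisense RNAs (30.8%) and 65 of 325 pseudogenes (20%), but 97 of 10977 protein-coding genes (0.884%). The already spliced class held 424 protein-coding genes (3.86% of that type), against 4.45% of all members. It also held 7 long intergenic RNAs (2.65%), 9 antisense RNAs (1.92%), 21 pseudogenes (6.46%) and 1 sense intronic RNA (1.45%). Of 831 entries not in GENCODE release 29, 114 (13.7%) were already spliced. The median share was 61.8% for protein-coding genes, 44.5% for pseudogenes, 17.1% for antisense RNAs, 13.1% for long intergenic RNAs and 0% for sense intronic RNAs. Nearly all unspliced genes were low, with a median of 10.3 TPM against 32.0 TPM for already spliced genes and 31.5 TPM for all members. Of the class in GENCODE release 29, 14.7% were read-through genes, whose transcripts join neighbouring genes, against 0.640% of already spliced genes and 1.55% of all members. A primary isoform that covers a whole locus also collects reads of same-strand neighbours, and 38.0% of nearly all unspliced genes, 55.01% of already spliced genes and 36.2% of all members overlapped another gene on their strand. The part of this overlap in the shares was not tested.

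**Figure D1:**
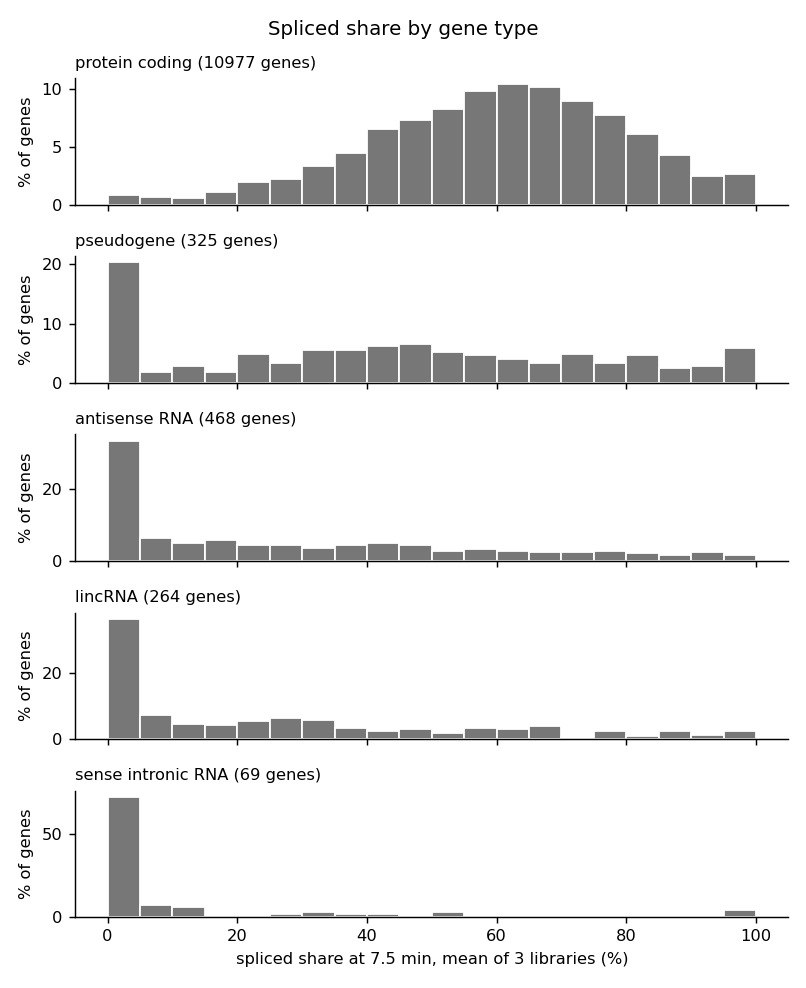
Distribution of the spliced share at 7.5 min (x axis, mean of 3 libraries, in percent) for 5 gene types, as the percent of genes of the type in each step of 5 points (y axis, a scale of its own in each panel). Protein-coding genes form a broad peak around their median of 61.8%, whereas 72.5% of sense intronic RNAs, 36.7% of long intergenic RNAs and 33.3% of antisense RNAs lie in the lowest step.

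Of the 97 protein-coding genes that were nearly all unspliced, 52 were read-through genes and 45 were not. Some of the more abundant of these 45 are named here, chosen after their values were seen. E2F3, a transcription factor of the step from G1 into S phase, had 9.12, 6.69 and 6.69 TPM mature, against 91.5, 119.6 and 122.9 TPM primary. ZIC5, a zinc finger factor of neural development, had 4.10, 4.26 and 2.76 TPM mature, against 89.3, 55.4 and 56.4 TPM primary. FBXO30, a substrate-binding subunit of a ubiquitin ligase, had 2.52, 3.26 and 1.41 TPM mature, against 34.4, 29.8 and 26.5 TPM primary. The log2 ratios of these 3 genes were −3.88 (SE 0.21), −4.13 (SE 0.19) and −3.67 (SE 0.25). The rule of the class fixed that primary lay above mature in each library, so the gap is a description. CTU1, an enzyme of tRNA thiolation, had a share of 2.98% ± 0.503 and CCDC127 one of 6.74% ± 2.27 (SD, n = 3 each). POLR2J2, one of several near-identical genes for an RNA polymerase II subunit, was listed at 0 mature TPM in all 3 libraries, against 73.0, 77.9 and 99.8 TPM primary. Its reads can be shared with its copies, so its value is uncertain, and the same holds for the pseudogene SDHAP2 (0 mature, 13.0, 7.17 and 9.71 TPM primary).

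Among genes with introns in the authors' intron table, the 10 with the lowest log2 ratio past the threshold included NUDT19 and ZFAS1. NUDT19, a hydrolase of coenzyme A esters, had 14.2, 26.2 and 13.9 TPM mature, against 160.2, 129 and 151 TPM primary (log2 ratio −3.07, SE 0.27, limma adjusted p = 9.16e-04). ZFAS1, a host of snoRNAs, had 29.7, 29.4 and 42.8 TPM mature, against 283, 213 and 247 TPM primary (−2.87, SE 0.17). MIRLET7BHG, the host of let-7 microRNAs, had 35.3, 4.04 and 7.92 TPM mature, against 103.6, 94.3 and 99.8 TPM primary. Among the others were POLR2J2, SDHAP2, APOLD1 (share 6.71% ± 8.32, SD, n = 3) and the joined genes HSPE1-MOB4, RPS10-NUDT3 and RPL17-C18orf32. RPS10-NUDT3 did not pass with a pseudocount of 0.01 TPM (limma adjusted p = 0.0705).

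At the other end ACTB, the cytoplasmic actin, had 1040, 681 and 693 TPM mature, against 2.81, 1.86 and 1.65 TPM primary (log2 ratio 8.52, SE 0.13). The ribosomal protein gene RPL36 had 1192, 837 and 1524 TPM mature, against 3.75, 3.15 and 3.81 TPM primary (8.30, SE 0.18). GPX4, a glutathione peroxidase that removes lipid peroxides, had 201.2, 199.7 and 229.8 TPM mature, against 2.20, 1.82 and 2.04 TPM primary (6.63, SE 0.12). Every mature value of these 3 genes lay far above every primary value, which follows from choosing the highest ratios and is no separate support. The other 7 of the 10 highest were RPL37A, CFL1 (the actin-severing protein cofilin), ATP5MF (a subunit of ATP synthase), the chromatin protein HMGB1, RPL28, EIF2B5 (a subunit of the exchange factor for eIF2) and RPL6, with shares of 98.9% to 99.3%. Genes without an entry in the intron table went further: NME2, a nucleoside diphosphate kinase, had 645, 444 and 670 TPM mature and was listed at 0 primary TPM. NME2 overlaps another gene on its strand, and its share was 90.7% in replicate 2 at 15 min and 93.2% in replicate 2 at 60 min. RPS18 (247, 236 and 368 TPM mature, 0 primary) had the same 6 values as the entry ENSG00000235650. Genes nearest the median ratio were SKIC8, FAM136A, CASP9 and ZNF426, with shares of 59.7% to 59.8% and SDs of 6.98 to 9.17 points.

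**Figure D2:**
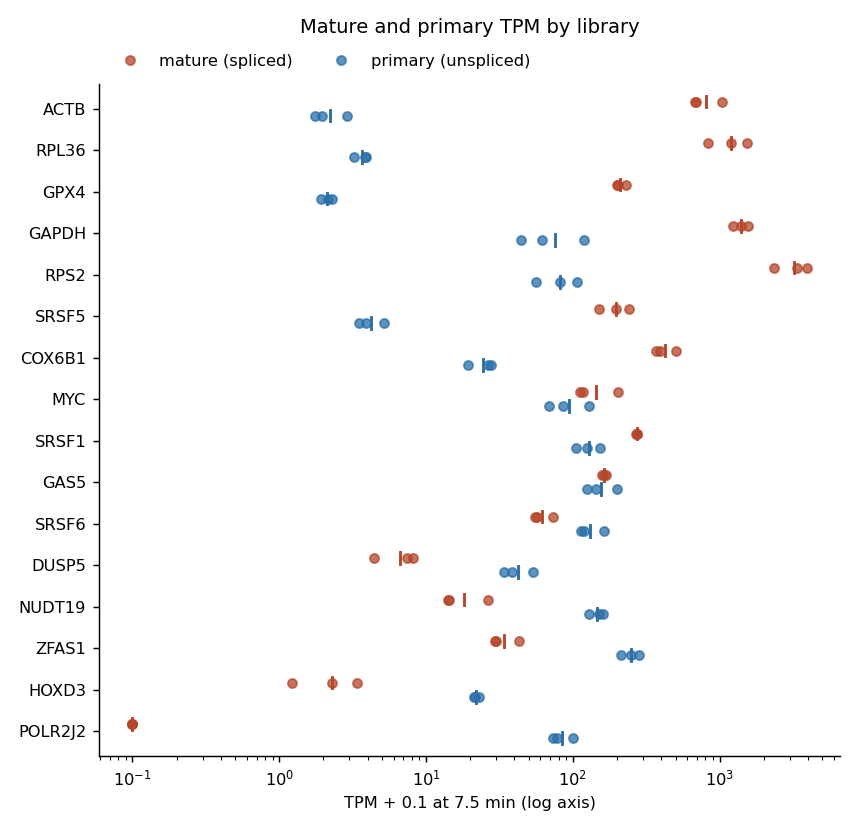
Mature and primary TPM + 0.1 at 7.5 min on a log axis for 16 genes, with 1 point per library and a bar at the mean of 3. Mature lies right of primary in every library from ACTB to SRSF1 and left of it from SRSF6 to POLR2J2, whose mature points sit at 0.1 because they are listed at 0.

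The intron table gave the excised share of single introns, counted by the authors from junction reads and averaged over the replicates, for 21781 introns of 4162 members. It is called theta here, is 0 for an intron always present and 1 for an intron always removed, and is given without an error because only the average was deposited. It comes from the same libraries as the TPM, but from reads across splice sites rather than from whole isoforms. Over these genes the share was higher with a higher mean theta at 7.5 min: the median share was 34.6% ± 4.29 in the 38 genes under 0.2, 53.7% ± 1.15 in 463 genes at 0.3 to 0.4, 67.1% ± 0.754 in 1204 genes at 0.5 to 0.6 and 87.5% ± 0.923 in the 173 genes at 0.8 or more (SD over 3 libraries). Spearman's coefficient across the 4162 genes was 0.54, as a description of genes that share libraries. Already spliced genes had a median theta of 0.760 (156 with introns in the table) and nearly all unspliced genes 0.475 (7 with introns), against 0.540 for all 4162. Of the nearly all unspliced class 577 genes had no intron in the table.

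The median share was higher in genes with short, GC-rich introns. It was 72.0% ± 0.801 where the mean intron length was under 150 nt, 75.2% ± 1.30 at 150 to 300 nt, 69.0% ± 1.45 at 300 nt to 1 kb and 63.0% ± 1.14 at 10 kb or more (SD over 3 libraries). By intron GC it was 61.3% ± 1.53 under 35% and 77.3% ± 0.238 at 60% or more. Among 4 equal groups of genes ordered by share, the highest had introns of 1048 nt and 46.2% GC at the median, and the lowest had introns of 1910 nt and 39.9% GC. Already spliced genes had introns of 601 nt and 49.8% GC, against 1587 nt and 41.9% GC for all genes with introns. The 7 nearly all unspliced genes with introns did not follow this order, with 1236 nt and 50.9% GC. Spearman's coefficient was −0.18 with mean log10 intron length, 0.26 with GC, −0.038 with the longest intron, 0.25 with the number of introns, −0.077 with the authors' 5′ splice site score and 0.0026 with the 3′ score (n = 4162 genes). The 2 features go together, since genes with a mean intron length under 150 nt had a median intron GC of 0.592 as a fraction and genes at 10 kb or more 0.403. The level moved too: the coefficient with total TPM was 0.36, and the 4 groups from lowest to highest share had medians of 59.5, 66.3, 77.4 and 103 TPM. Genes spanning 300 kb or more had a median share of 75.4% ± 1.66 (n = 487), against 57.4% to 63.4% in the shorter span classes. The part of level in these relations was not tested.

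**Figure D3:**
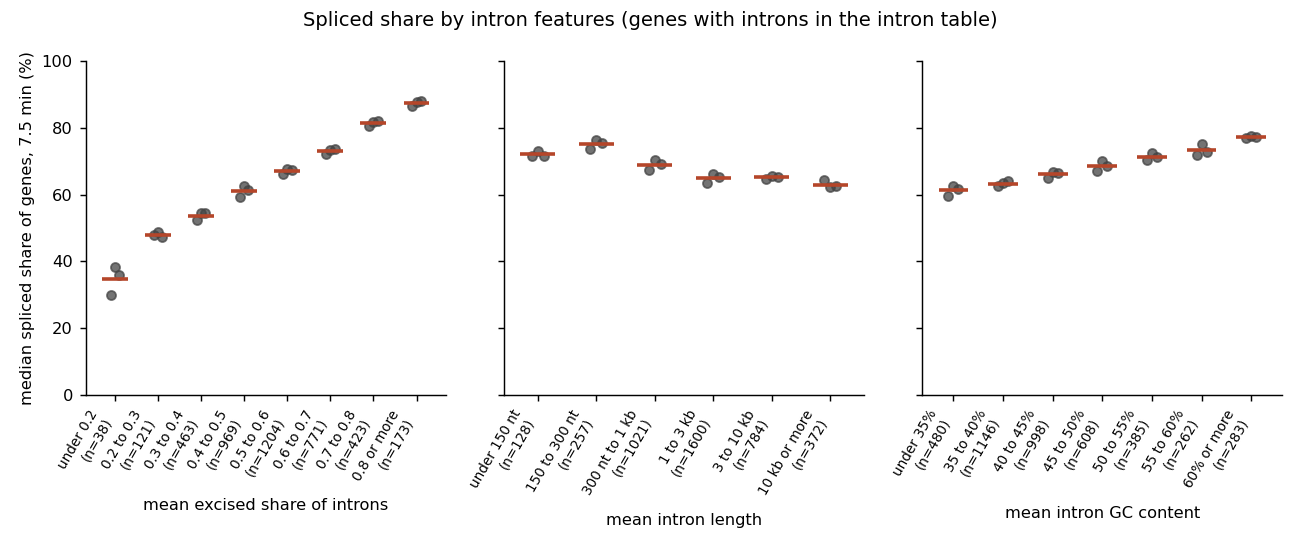
Median spliced share at 7.5 min (y axis, percent) of genes grouped by the mean excised share, mean length and mean GC content of their introns, with 1 point per library and a bar at the mean of 3. The share climbs in every step of excised share, to 87.5% at 0.8 or more, and by a smaller amount with GC content, while it is 63.0% at 10 kb or more and 72.0% under 150 nt.

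To show what introns of low and high theta look like, splice sites were read from GENCODE release 29 transcripts that keep the intron, matched by gene, exact length and GC content. This was possible for 1200 introns of 666 genes. Their median length was 267 nt, against 1424 nt for all introns of members. Only introns with an annotated retention could enter, and the part of this in their length was not tested. Below, capitals mark the first 6 bases of the intron at the 5′ site and the last 2 at the 3′ site, and lower case at the ends marks exon. Introns in part of the genome and introns of genes without a symbol were left out of the choice of the lowest and highest theta. The 6 genes with the lowest theta at 7.5 min among the introns left, 1 intron each, follow, chosen after their values were seen.
SNHG1 5′ site: gcaGTAAGT
SNHG1 3′ site: gaagggtgttattttttcAGatg
SLC38A2 5′ site: ttgGTAAGT
SLC38A2 3′ site: acataaatgttgttttacAGgtg
AMD1 5′ site: caaGTAAGT
AMD1 3′ site: tcttttcttttttaataaAGagc
EIF4A2 5′ site: aagGTAAAA
EIF4A2 3′ site: gtgtatcctactttttttAGggt
ADAMTS1 5′ site: gatGTGAGT
ADAMTS1 3′ site: tgatttatgtctccatttAGacg
ZFAS1 5′ site: ttgGTAAGT
ZFAS1 3′ site: gacctgttaactttctatAGgtt
The SNHG1 intron (hg19 chr11:62622689-62622895, minus strand, 207 nt) had a theta of 0.0380 at 7.5 min and 0.331 at 60 min. That of SLC38A2, an amino acid transporter, (chr12:46756165-46756276, minus strand, 112 nt, 31.25% GC) had 0.0749 and then 0.740. That of AMD1, an enzyme of polyamine synthesis, (chr6:111210187-111211456, plus strand, 1270 nt) had 0.0829 and 0.724, and that of the translation helicase EIF4A2 (chr3:186502486-186502750, plus strand, 265 nt) had 0.0900 and 0.476. The intron of the protease gene ADAMTS1 (chr21:28212381-28212594, minus strand, 214 nt) had 0.0939 and 0.769, and that of ZFAS1 (chr20:47897108-47897439, plus strand, 332 nt) had 0.0970 and 0.245. The introns of SNHG1, EIF4A2 and ZFAS1 hold a snoRNA, per the authors' table. Of these 6 introns 4 begin with GTAAGT, which pairs well with U1 snRNA, and their 3′ ends are rich in T.

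The 6 genes with the highest theta among the introns left by the same choice follow.
KRI1 5′ site: cagGTGGGT
KRI1 3′ site: acctatggccctctctgcAGgag
RPLP2 5′ site: cgcGTGAGT
RPLP2 3′ site: gtcctctccgcccgcctcAGgat
GPX4 5′ site: aaaGTGCGT
GPX4 3′ site: tccatgtgcttcttttccAGtgc
BTBD2 5′ site: cagGTGGGG
BTBD2 3′ site: cctgtcatctgccacggcAGgtt
CKB 5′ site: cagGTGCGG
CKB 3′ site: actcccgtctcgcctcccAGggc
OAZ1 5′ site: gagGTAGGT
OAZ1 3′ site: tgacggcttctcccccgcAGccg
Their theta at 7.5 min was 1 for KRI1 (hg19 chr19:10672393-10672466, minus strand, 74 nt), 0.989 for the ribosomal stalk gene RPLP2 (chr11:810040-810233, plus strand, 194 nt) and 0.978 for GPX4 (chr19:1105809-1106240, plus strand, 432 nt). It was 0.963 for BTBD2 (chr19:1987253-1987498, minus strand, 246 nt), for the creatine kinase gene CKB (chr14:103988288-103988359, minus strand, 72 nt) and for OAZ1, the antizyme that restrains polyamine synthesis (chr19:2272820-2272970, plus strand, 151 nt). At 60 min theta was lower in each of the 6, at 0.968 for KRI1, 0.943 for RPLP2, 0.952 for GPX4, 0.865 for BTBD2, 0.819 for CKB and 0.925 for OAZ1. The 6 were picked as the highest at 7.5 min, and KRI1 at 1 could not rise. The choice itself favours lower values at another time, so this direction is no result about these introns. None of these 6 introns begins with GTAAGT, and their GC content is 66.9% to 83.3%, against 31.25% to 44.9% in the 6 introns of low theta. The whole SLC38A2 and CKB introns with 3 exon bases at each end show this difference at similar length.
SLC38A2: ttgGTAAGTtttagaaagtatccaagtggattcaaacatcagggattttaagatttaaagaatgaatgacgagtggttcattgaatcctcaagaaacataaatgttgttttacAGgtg
CKB: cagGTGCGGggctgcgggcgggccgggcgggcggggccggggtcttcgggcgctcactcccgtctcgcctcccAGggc

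Over all 1200 introns the same contrast was weaker. In 4 equal groups from lowest to highest theta (300 introns each), introns starting with GTAAGT made up 14%, 17.3%, 11% and 11%. Their median GC was 39.95%, 43.4%, 50.3% and 57.3%, and their median length 383.5, 278.5, 270 and 194 nt. In the 20 intron bases before the 3′ exon, T made up 34% in the highest and 41.8% in the lowest group, C made up 35% in the highest and 23.2% in the lowest, and pyrimidines together 69% and 65.0%. These are shares of these letters in these windows and are not sites shown to act.

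A rare class of introns is removed by the minor (U12-type) spliceosome and is recognised by a longer 5′ sequence. Of the 1200 introns 6 (0.5%) began with GTATCCTT or ATATCCTT, searched on the transcribed strand only, and capitals mark these 8 bases.
NOL11: actGTATCCTT
GNL3: aagGTATCCTT
PSMA1: gcaGTATCCTT
CHD4: aaaGTATCCTT
RPL4: aacGTATCCTT
DDB1: cttATATCCTT
Their theta at 7.5 min was 0.231 (NOL11, a factor of ribosomal RNA synthesis), 0.285 (GNL3, nucleostemin), 0.362 (PSMA1, a proteasome subunit), 0.505 (CHD4, a chromatin remodeller), 0.577 (RPL4) and 0.667 (DDB1, a ubiquitin ligase adaptor). The median was 0.434, against 0.550 for the other introns with a sequence, and the range overlaps them. The DDB1 intron ends with AC rather than AG, and its 3′ site is shown for this reason.
DDB1 3′ site: tccttaactcacccatccACctg
The starting bases follow the rule by which they were searched, and 8 matching bases alone do not show which spliceosome acts.

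Introns that hold a snoRNA had a median theta of 0.474 at 7.5 min (162 introns, quartiles 0.254 and 0.695) and of 0.719 at 60 min, against 0.542 and 0.844 for 21535 introns without a small RNA. For 84 introns that hold a microRNA it was 0.620 at 7.5 min. Per gene, 24 snoRNA hosts had a median share of 55.5%, with 11 mature higher (45.0% of all genes), 6 primary higher (15.7% of all genes) and 7 not passed. SNHG1 (share 20.4%), SNHG3 (30.1%) and ZFAS1 (12.1%) had more primary RNA, and GAS5, the growth arrest host, had 163, 169 and 158 TPM mature against 199, 124 and 143 TPM primary, which overlap. RACK1, a ribosome-bound scaffold whose introns also host snoRNAs, had a share of 94.4% ± 0.178, and NCL, nucleolin, one of 90.9% ± 0.753 (SD, n = 3 each).

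Genes for the machinery of protein and energy production stood far on the spliced side, where 45.0% of all 13110 genes had more mature RNA by limma and the median log2 ratio was 0.58. The lists were chosen with results of these data known, and the counts describe them. Of 77 ribosomal protein genes 74 had more mature RNA, 1 more primary and 2 did not pass, with a median log2 ratio of 3.30 and share of 91.0%, and 35 were already spliced. Among all genes 4.45% were already spliced. RPS2 had 3914, 2337 and 3344 TPM mature, against 106, 55.6 and 82.0 TPM primary, and RPS15A had a share of 90.6% ± 2.41 (SD, n = 3). The exception was RPL22L1, a paralogue of RPL22, with 30.1, 19.3 and 33.2 TPM mature, against 81.2, 47.0 and 59.6 TPM primary (log2 ratio −1.19, SE 0.16, limma adjusted p = 0.00347). Of 73 nuclear-encoded respiratory chain and ATP synthase (OXPHOS) genes 70 had more mature RNA and none more primary, also 0 at an unadjusted p under 0.05 (median 2.57, share 83.9%). Among all genes 15.7% had more primary RNA, and 2323 of 13110 did at that unadjusted p. COX6B1, a cytochrome c oxidase subunit, had 394, 366 and 507 TPM mature, against 27.7, 19.3 and 26.2 TPM primary, whereas UQCRFS1, the iron-sulfur subunit of complex III, had 122, 111 and 126 TPM against 140.2, 86.6 and 97.8 TPM and did not pass.

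Other housekeeping lists lay between these and the median gene, where 45.0% of all genes had more mature RNA. Of 16 glycolysis genes 15 had more mature RNA (median log2 ratio 2.47). GAPDH had 1549, 1238 and 1397 TPM mature, against 119, 44.0 and 61.8 TPM primary, and HK2, a hexokinase, did not pass (share 42.4% ± 2.52, SD, n = 3). Of 14 heat shock chaperones 12 had more mature RNA (2.38), of 30 proteasome genes 29 (1.82), of 44 translation factors 38 (1.66), of 20 aminoacyl-tRNA synthetases 19 (share 73.9%), of 8 TRiC chaperonin genes all 8 (1.46), of 76 mitochondrial ribosomal protein genes 58 (1.34) and of 39 core spliceosome genes 33 (1.28). Within them EIF1AX, which scans for the start codon, had more primary RNA (39.7, 53.4 and 47.0 TPM mature, against 133.0, 97.7 and 106.8 TPM primary), and EEF1A1, which brings tRNAs to the ribosome, had a share of 93.6% ± 0.326 (SD, n = 3). MRPL30 had more primary RNA (0, 4.25 and 0 TPM mature, against 20.6, 15.6 and 17.98 TPM primary), but not without replicate 1 or replicate 3 (limma adjusted p = 0.0713 and 0.0718).

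**Figure D4:**
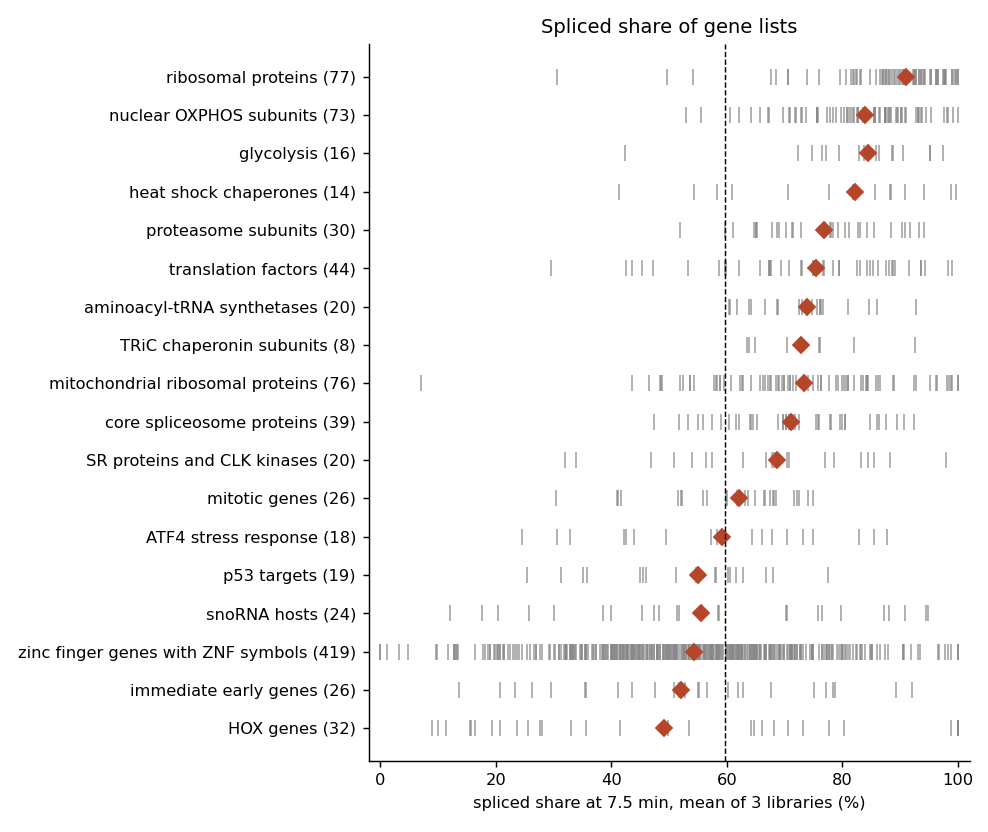
Spliced share at 7.5 min (x axis, mean of 3 libraries, in percent) of the members of 18 gene lists, with 1 tick per gene and a diamond at the list's median (the mean of 3 library medians). The dashed line is the median gene at 59.8%. Ribosomal protein genes centre on 91.0% and HOX genes on 49.1%.

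Lists of regulators lay nearer the median gene, where 45.0% of all genes had more mature and 15.7% more primary RNA. Of 419 zinc finger genes with ZNF symbols 137 had more mature RNA (32.7%) and 73 more primary (17.4%), with a median log2 ratio of 0.25, and their introns had a theta of 0.410. Of 26 immediate early genes, the first to answer growth signals, 8 had more mature and 6 more primary RNA (30.8% and 23.1%, median 0.22). DUSP5, a phosphatase of MAP kinases, had 8.10, 4.35 and 7.29 TPM mature, against 53.8, 38.1 and 33.8 TPM primary (log2 ratio −2.67, SE 0.22, limma adjusted p = 7.01e-04). MYC had 201.5, 111 and 116 TPM mature, against 129, 68.1 and 85.3 TPM primary (0.60, SE 0.12); mature was higher within each library though the ranges overlap, and MYC did not pass without replicate 2 (limma adjusted p = 0.0674). MCL1, a survival factor, had a share of 23.4% ± 3.89, and IER2 one of 92.1% ± 4.38 (SD, n = 3 each). Of 26 mitotic genes 16 had more mature and 3 more primary RNA (61.5% and 11.5%, median 0.80), of 18 ATF4 stress genes 9 and 4 (0.67) and of 19 p53 targets 6 and 4 (0.32). MDM2, the ligase that degrades p53, had a log2 ratio of 0.48 and did not pass without replicate 2 or 3 (limma adjusted p = 0.196 and 0.171), and MKI67 had 0.78 and did not pass without the same libraries (0.0597 and 0.0714).

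The 32 HOX genes, which set position along the body axis, split into both ends. Of these 11 had more mature RNA (34.4%, against 45.0% of all genes), 14 more primary (43.75%, against 15.7%) and 7 did not pass. HOXD3 had 2.17, 3.27 and 1.13 TPM mature, against 22.9, 21.0 and 21.5 TPM primary, and HOXA6 had 95.5, 83.0 and 45.9 TPM mature and was listed at 0 primary TPM. In all 7 of the 32 HOX genes were already spliced, against 4.45% of all genes. None was in the nearly all unspliced class, which held 4.45% of all genes, and for 32 genes none lies near that share. HOX genes sit in clusters whose transcripts overlap, so primary reads of neighbours cannot be told apart.

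Genes of the SR proteins, which choose splice sites, and of the CLK kinases that phosphorylate them ranged from SRSF6 to SRSF5. SRSF6 had 72.6, 54.96 and 57.2 TPM mature, against 161.8, 114 and 119 TPM primary (log2 ratio −1.09, SE 0.11, limma adjusted p = 0.00123). SRSF5 had 240.4, 151 and 196 TPM mature, against 5.06, 3.41 and 3.81 TPM primary (5.54, SE 0.11). SRSF1 had 272, 274 and 267 TPM mature, against 153, 104.5 and 125 TPM primary (1.10). Of the 20 genes 13 had more mature RNA (65%, against 45.0% of all genes) and 1 more primary (5%, against 15.7%).

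In some genes the isoform values and the junction reads differed in rank. The 5 genes with at least 3 introns whose share ranked furthest above their theta were TAF1D, TXNDC5, SRSF5, PTP4A1 and SNHG29. SRSF5 had a share of 97.9% ± 0.154 beside a theta of 0.342 over 9 introns, TAF1D, a subunit of the polymerase I factor SL1, 94.7% ± 0.763 beside 0.189 over 5, and TXNDC5, a disulfide isomerase, 96.1% ± 1.26 beside 0.292 over 9 (SD, n = 3 each). Those furthest below were METTL14, RPL17-C18orf32, RPS26, RPL21 and TFCP2. METTL14, a subunit of the m6A methyltransferase, had a share of 35.6% ± 4.06 beside a theta of 0.736 over 3 introns and lost its call for more primary RNA without replicate 2 or 3 (limma adjusted p = 0.05 and 0.065), and RPS26 one of 54.1% ± 11.6 beside 0.846 over 3 (SD, n = 3 each). RPL21 had 45.3, 130 and 129 TPM mature, against 109, 81.6 and 93.6 TPM primary, so that replicate 1 lay on the other side from replicates 2 and 3. Without replicate 1 its log2 ratio was 0.57 (limma adjusted p = 0.0252), against −0.039 with all 3. TAF1D, TXNDC5, PTP4A1, SNHG29, RPL17-C18orf32, RPL21 and TFCP2 overlap another gene on their strand.

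The classes were then followed through later times and total RNA, whose shares played no part in setting them. The median share of all members was 60.3% ± 0.564, 62.1% ± 3.51, 70.9% ± 2.51, 81.4% ± 3.69 and 85.0% ± 3.12 at 7.5, 15, 30, 45 and 60 min (SD, n = 3 each), and 97.9%, 96.7% and 97.6% in the poly(A), RNase H and Ribo-Zero libraries of total RNA. The already spliced class stayed at medians of 97.0% to 98.5% through labelling. In the nearly all unspliced class the median share was 0% at every time and in each total library. Of these 584 genes, 223 (38.2%) had a share of at most 10% in each total library and 6 (1.03%) of at least 90%, and 159 were listed at 0 mature TPM in all 18 libraries. Of the 11943 genes between, 9940 (83.2%) had at least 90% in each total library.

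With limma on the 15 labelled libraries, which share 1 estimate of the spread, the ratio of mature to primary RNA was higher at 60 than at 15 min in 8832 of 13110 genes (67.4%) and lower in 38 (0.290%), with a median difference of 1.74 on the log2 scale. In the nearly all unspliced class it was higher in 157 of 584 genes (26.9%) and lower in none, also 0 at an unadjusted p under 0.05, where 0.290% of all genes were lower. Of the 157 genes, 77 were listed at 0 mature TPM in all 15 and 60 min libraries, as were 311 of the class, so that their ratio moved with the primary value over the pseudocount alone and shows no gain of spliced RNA. Of the 273 genes with mature RNA in at least 1 of these libraries 80 were higher. With mature at 0 a lower ratio can come only from more primary RNA, which limits what the count of 0 shows. Without 60 min replicate 1 only 90 of the 584 were higher, and with a pseudocount of 1 TPM 1 was lower. In the already spliced class it was higher in 142 (24.4%) and lower in 20 (3.43%) of 583 genes, and among the genes between in 8533 (71.4%) and 18 of 11943.

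**Figure D5:**
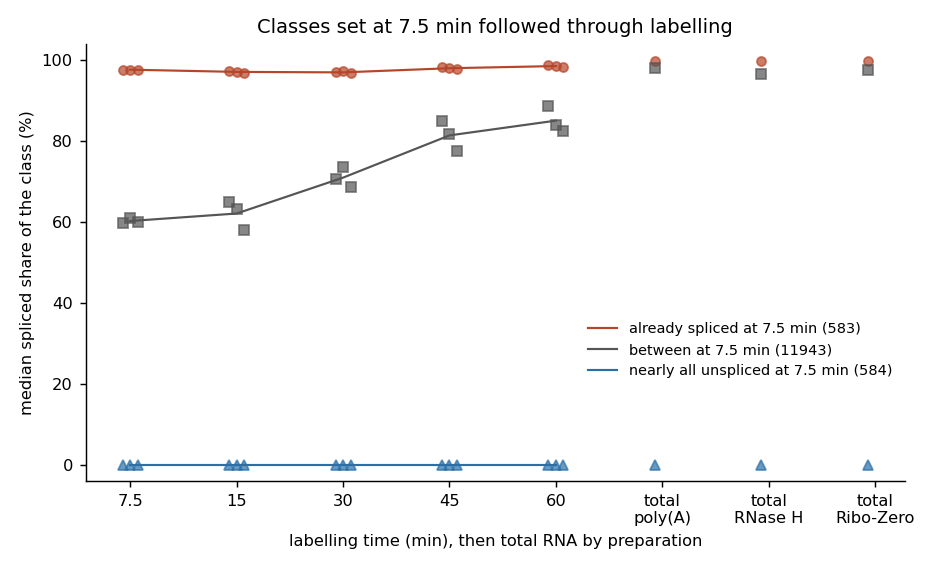
Median spliced share (y axis, percent) of the 3 classes set at 7.5 min, at each labelling time (categories, not to scale) and in total RNA by preparation, with 1 symbol per library and lines through the means of 3. The mean for the genes between was 60.3%, 62.1%, 71.0%, 81.4% and 85.1% over the 5 times, while the nearly all unspliced class stays at 0% and the already spliced class above 96%.

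Of the 45 protein-coding genes that were nearly all unspliced and not read-through, 21 had a higher ratio at 60 than at 15 min. Among all genes 67.4% had, so the count lies below the common share. The share of E2F3 was 6.51% ± 2.21 at 7.5 min and 22.7% ± 8.41, 51.3% ± 9.06, 65.8% ± 17.9 and 75.4% ± 11.7 at 15, 30, 45 and 60 min (SD, n = 3 each), and 90.6%, 83.6% and 91.1% in the poly(A), RNase H and Ribo-Zero libraries. CCDC127 had 43.3% ± 7.86 at 60 min, against 2.15% ± 1.56 at 15 min (SD, n = 3 per time; difference of the log2 ratio 4.96, SE 0.50, limma adjusted p = 1.04e-05). FBXO30 had 65.0% ± 5.54 and 11.1% ± 6.98 and ZIC5 56.2% ± 2.68 and 10.6% ± 3.50 at the same times. Others did not pass, among them PCBD2 (6.49% ± 0.663 at 60 min, against 3.06% ± 3.08 at 15 min). E2F3, CCDC127 and PCBD2 overlap another gene on their strand. NUDT19 had 79.5%, 64.9% and 63.3% at 60 min, against 14.2%, 14.1% and 10.0% at 15 min, and the times did not overlap. ZFAS1 had 30.7%, 23.8% and 19.9% at 60 min, against 13.9%, 10.7% and 11.3% at 15 min, and 93.5%, 88.4% and 92.2% in the 3 total libraries. The antisense RNA LINC01424 stayed at a share of 0% at every labelling time after 7.5 min, with 65.6, 24.1 and 34.0 TPM primary at 7.5 min.

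Genes with a high share also had much mature RNA in the cell at large. Across the 13110 genes Spearman's coefficient of the share with mature TPM in total RNA was 0.46 (poly(A)), 0.45 (RNase H) and 0.43 (Ribo-Zero). The median mature level in the RNase H library was 0 TPM for nearly all unspliced, 18.04 TPM for already spliced and 10.85 TPM for all genes. The authors' centred degradation score had medians of 1.16 and −0.53 in the nearly all unspliced and already spliced classes and −0.082 in all members with scores, and its coefficient with the share was −0.40 (n = 11808 genes). The authors' centred processing score had medians of −0.60 and 0.76 in the same 2 classes and 0.10 in all members with scores. Its coefficient with the share was 0.65, larger in size than that of the degradation score (n = 11808 genes). Both scores were fitted on these libraries and are not independent. Unlabelled mature RNA carried through the streptavidin step would add to the mature value, and its part in the share was not tested.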

How the data were processed

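The authors deposited TPM per gene for mature and primary transcripts. Each gene of GENCODE release 19 was given 1 extra isoform that spans its locus (the primary value) before RSEM was run, and the mature value sums the rest, per the file headers. The build hg19 and the versions (RSEM 1.2.11, Bowtie 1.0.1) are per the submitters' processing notes. The authors' intron table gives, per the file headers, the excised share as a fraction (bam2ssj, more than 5 reads in each of 3 replicates, averaged), intron GC as a fraction, length as log10 nucleotides and splice site scores. The authors' rate table holds centred scores of degradation and processing and a log2 cytoplasmic to nuclear balance, per the file headers. Depth is unknown.

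Ratios used log2(TPM + 0.1) and limma 3.58.1 in R 4.3.3 (empirical Bayes with a trend, two-sided, Benjamini-Hochberg over 13110 genes at 0.05). Mature and primary columns of a library form the pair. The fold understates low genes. On simulated data with the real means, 83.3% of genes set to a log2 ratio of 1 and 96.7% of those set to 2 were called at 7.5 min. For 60 against 15 min these were 50.0% and 78.3%, and 10.0% of genes set to no difference were called higher or lower. Symbols (11729 genes) and gene types (12279 genes) came from GENCODE release 29 (GRCh38), whose transcripts gave the splice sites. No coordinate was moved between builds.

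Genes were named by rule: the 10 lowest and 10 highest ratios with introns, the lowest, median, highest and most abundant of each list, the 4 nearest the median, the 5 largest rank differences each way, and the 4 lowest and highest without introns. Others, among them MCL1, SNHG1, SNHG3, NCL, C4orf48, HOXB6 and LINC01424, were chosen after their values were seen. Members, lists and rules were chosen with earlier results of these data known. Alternatives covered the pseudocount, the expression minimum, class edges, centring, left-out libraries and the replicate block. Some genes that meet the rule are not reported here. Copies per cell were not used here.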

Additional observations from a re-analysis of the deposited data

Results flagged for a closer look

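By limma over the 15 labelled libraries, 38 genes had a lower mature to primary ratio at 60 min than at 15 min, against 8832 with a higher one, which sets them apart from the common direction. Of the 38 genes, 20 were already spliced at 7.5 min and 18 lay between the classes. Of the 77 ribosomal protein genes 4 were lower and 32 higher, and of the 73 OXPHOS genes 3 were lower and 26 higher. Among all genes 0.290% were lower and 67.4% higher. Among the named genes the difference of the log2 ratio, 60 minus 15 min, was −0.64 for RPL36, −1.05 for RPL37A, −2.26 for ATP5MF, −0.96 for GPX4 and −0.94 for ENSG00000196656, a pseudogene. ENSG00000196656 was listed at 0 primary TPM in all 15 and 60 min libraries, 1 of 3 such genes among the 38, so its difference reflects mature TPM over the pseudocount and not its splicing. The share of ATP5MF was 85.2%, 91.0% and 89.2% at 60 min, against 97.8%, 98.2% and 95.8% at 15 min, and the times did not overlap. GPX4 had 96.0%, 96.7% and 95.5% at 60 min, against 96.9%, 98.3% and 98.4% at 15 min. The lowest difference was −6.82 (C4orf48, SE 0.81, limma adjusted p = 2.54e-05), followed by the homeobox gene HOXB6 at −6.28 (adjusted p = 1.65e-04). Whether the 38 genes differ from the others in any way beyond this contrast was not tested.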

How the results depend on the processing

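Of the alternative values, 122 of summary results stayed within their bounds and 37 did not, and among single genes 501 kept direction and call, 21 lost the call, 5 gained it and 8 changed sign. Genes with more mature RNA numbered 3826 with centring and 3679 without a model (log2 ratio of at least 1 in all 3 libraries). Those with more primary RNA numbered 1073 at a minimum of 20 TPM, 4792 with no minimum, 3505 with centring, 1311 without a model and 1342 to 1770 with a library left out. The median share was 57.9%, 63.3% and 45.9% at minima of 1 TPM, 20 TPM and none, and 66.5% over genes with introns. Nearly all unspliced genes numbered 1418, 124 and 4619 at these minima and 111 without genes listed at 0, an alternative chosen after seeing the data. Already spliced genes numbered 362 at 20 TPM, 902 with no minimum, 341 with edges of 5% and 95% and 1485 with 20% and 80%. In the 7 unspliced genes with introns theta was 0.463 by the median over introns and 0.425 at 20 TPM, intron length 1405 nt with at least 3 introns, 4542 nt at 20 TPM and 2490 nt by the longest intron, and GC 47.1% with at least 3 introns. The longest intron of already spliced genes had 1636 nt. With at least 3 introns Spearman's coefficient was 0.64 for theta and 0.29 for GC. With a pseudocount of 1 TPM the ratio was lower at 60 than at 15 min in 60 genes, in 1 unspliced and in 31 spliced ones. It was higher in 44 unspliced genes at 20 TPM. With a 60 or 15 min library left out it was higher in 90 to 156 and lower in 0 to 5 unspliced genes. With a library left out the log2 ratio changed sign in 7 named genes, none of which passed with all 3 libraries: ZNF34 ranged over −0.071 to 0.69, HOXD11 over −0.23 to 0.13 (0.081 without replicate 3), SNRPA1 over −0.31 to 0.029, BTG2 over −0.11 to 0.64, PSMD12 over −0.11 to 0.31, GAS5 over −0.070 to 0.29 and RPL21 over −0.40 to 0.57. The causes were not tested. The mature and primary columns of a library are a pair by construction, and with no replicate block 5953 and 2111 genes were called. Replicate letters of 60 and 15 min correlated by 0.16, 0.026 and 0.11 in their deviations, and unlike letters by −0.14 to 0.047. Whether a letter marks something shared between times is not given by the labels and was not tested. With the letters as a replicate block 9243 genes were higher and 50 lower. The minimum of 5 TPM and values listed at 0 bear on the size of the unspliced class, and depth cannot be judged from TPM.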
